A study of Mus musculus with 4 samples.

Results

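Imprinted genes were followed in the mouse line BR5FVB1-Akt, labelled as ovarian cancer, grown with or without decitabine. The members are 38 listed imprinted genes, and each was read from the array rows that carry its symbol and no other, with the highest-mean row kept. By this rule 32 of the 38 were measured, among 22180 genes in all. H19, Snrpn, Snurf, Rtl1 and Mirg were on rows shared with another symbol, Zrsr1 was on no row here, and these 6 were not analysed. Of the 32, 21 are known as expressed from the paternal copy and 9 from the maternal copy. Gnas and Inpp5f were kept apart, because the copy used depends on the transcript. The control group was 2 cultures of the line without decitabine, and the treated group 2 cultures given 10 uM decitabine for 72 h. All 4 samples are of this line in the same medium, and the labels give no genotype for it. The labels call the samples biological replicates without saying how they were cultured, so p-values measure the spread between these 4 arrays.

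An imprinted gene is expressed mainly or only from the copy inherited from a given parent. The choice is set by differentially methylated regions (DMRs), which take up DNA methylation in the egg or the sperm and keep it on that copy in the body. Each DMR controls a cluster that can hold genes of both parental kinds, often through a long non-coding RNA or an insulator. Decitabine is a cytidine analogue that traps DNA methyltransferases on replicating DNA and lowers methylation. Array values sum both copies of a gene, so they do not show which copy a transcript came from. In bulk RNA, fewer expressing cells and less RNA per cell cannot be told apart.

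The sequences upstream of members show the CG dinucleotides, the sites of DNA methylation, whose number differed between them. They are from RefSeq (GRCm38.p6), are written 5′ to 3′ on the gene's strand up to the base before the start of transcription, and have each CG in capitals. The Peg3 stretch is the whole gap to the divergent gene Usp29, and the others are the 250 bases before a start. Where RefSeq had several starts, the window with the most CG is shown. Peg3 and Mest are shown as genes with their promoter at a germline DMR, and Grb10, Igf2, Dlk1 and Phlda2 as members whose values are described below.
Peg3 to Usp29 (chr7:6730420-6730582, minus strand): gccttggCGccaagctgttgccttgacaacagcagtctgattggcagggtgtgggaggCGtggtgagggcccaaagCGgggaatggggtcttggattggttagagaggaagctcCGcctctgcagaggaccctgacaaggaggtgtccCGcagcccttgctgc
Mest (chr6:30737800-30738049, plus strand): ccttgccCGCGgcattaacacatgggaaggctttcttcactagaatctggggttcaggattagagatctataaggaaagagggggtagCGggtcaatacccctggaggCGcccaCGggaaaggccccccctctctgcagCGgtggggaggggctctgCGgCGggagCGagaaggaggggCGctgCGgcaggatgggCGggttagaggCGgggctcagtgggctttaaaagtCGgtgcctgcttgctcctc
Grb10 (chr11:12037421-12037670, minus strand): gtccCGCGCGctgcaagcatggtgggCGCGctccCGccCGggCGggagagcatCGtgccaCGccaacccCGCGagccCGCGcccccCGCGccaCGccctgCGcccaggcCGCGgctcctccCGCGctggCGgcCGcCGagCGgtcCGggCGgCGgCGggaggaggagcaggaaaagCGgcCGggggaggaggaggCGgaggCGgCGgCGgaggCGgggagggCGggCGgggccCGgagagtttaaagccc
Igf2 (chr7:142658805-142659054, minus strand): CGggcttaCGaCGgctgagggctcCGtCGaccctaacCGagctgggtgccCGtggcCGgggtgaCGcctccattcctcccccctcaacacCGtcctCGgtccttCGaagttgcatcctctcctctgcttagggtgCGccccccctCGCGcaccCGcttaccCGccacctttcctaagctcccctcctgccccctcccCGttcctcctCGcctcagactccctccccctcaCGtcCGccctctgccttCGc
Dlk1 (chr12:109452573-109452822, plus strand): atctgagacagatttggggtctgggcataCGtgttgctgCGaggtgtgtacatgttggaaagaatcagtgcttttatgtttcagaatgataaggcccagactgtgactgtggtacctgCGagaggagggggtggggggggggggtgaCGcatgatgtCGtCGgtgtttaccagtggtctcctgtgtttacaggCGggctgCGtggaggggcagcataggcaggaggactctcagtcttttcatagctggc
Phlda2 (chr7:143502525-143502774, minus strand): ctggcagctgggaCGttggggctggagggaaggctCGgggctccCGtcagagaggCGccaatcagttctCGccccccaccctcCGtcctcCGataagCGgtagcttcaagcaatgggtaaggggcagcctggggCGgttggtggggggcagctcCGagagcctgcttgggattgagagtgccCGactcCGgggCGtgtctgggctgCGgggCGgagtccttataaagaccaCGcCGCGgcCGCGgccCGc

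Windows were on hand for 32 of the 38 listed genes, not the same 32 as those measured. In its richest window a listed gene held a median of 10.5 CG, against 6 over 27025 genes with a window. The 32 listed genes had 47 windows and the 27025 genes 32851. More windows per gene can raise the count of the richest one. Grb10 had the most CG, with 40, and Rian and Slc22a18 had 0. The 11 genes whose own promoter lies at a germline DMR had a median of 8, and the other 21 one of 14. The motif TGCCGC, the core bound by the imprint-keeping zinc finger protein ZFP57, was searched on both strands (GCGGCA on the other). It was in 5 of the 32 genes' windows, or 15.6%, against 9.15% over all genes, and the Mest window above held it 2 times. Counting any window of a gene, which favours genes with several windows, 6 of the 32 held it (18.8%, against 9.84%). The sixth was Zdbf2, with 3 in a window that is not its richest in CG. The motif GCGC, which reads the same on both strands and can overlap a TGCCGC match, was in 21 of the 32 (65.6%, against 44.0%). A window ends at the start of transcription and a DMR can extend past it, so these counts describe the letters shown and no more.

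**Figure D1:**
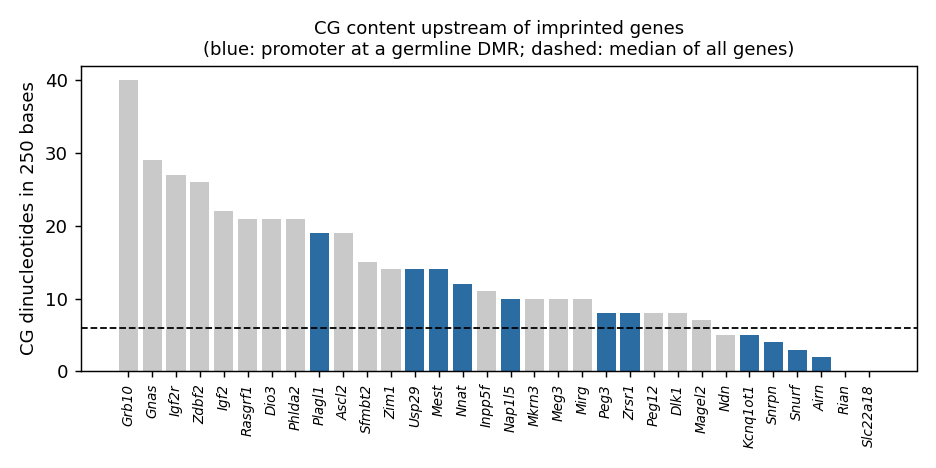
CG dinucleotides in the 250 bases before the start of transcription of 32 listed genes, 1 bar per gene in order, with the richest window of each. Blue bars are genes with their own promoter at a germline DMR and the dashed line is the median of all genes, 6; Grb10 stands highest at 40, and blue bars run from 2 to 19.

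The values were taken to be on a log2 scale, and every log2 difference here is decitabine minus control. The highest array median was 4.66, on decitabine replicate 2, and Pearson's r across genes, which are not independent replicates, was 0.990 to 0.995 between arrays. No detection level could be set for any row, and the number of arrays limited the precision. Values of different genes come from different probes and are not compared with each other.

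None of the 32 imprinted genes passed at an adjusted p under 0.05 in limma, without an intensity trend in the variance model and adjusted over all genes. In that fit 0.131% of all genes passed as higher and 0.0135% as lower, and the smallest adjusted p of a member was 0.183, for Phlda2. The 32 genes that passed over the whole array all had an absolute log2 difference of at least 1.17, larger than that of any member. Without adjustment, 2 members had p under 0.05 as higher (Phlda2 and Zdbf2) and 4 lower (Igf2, Dlk1, Peg3 and Sfmbt2), against 7.34% higher and 6.97% lower over all genes. In limma with an intensity trend, in which the variance prior follows the level of a gene, 5 members passed as lower over all genes and 0 as higher, against 3.6% and 3.68% of all genes. Such calls were more frequent in bright genes. Above the 75th percentile of level, 4 of 9 members passed as lower and 0 as higher, against 534 and 512 of 5545 genes. The 5 members that passed as lower at any level were Igf2, Dlk1, Peg3, Mest and Grb10. That count became 0 without control replicate 1, 1 without control replicate 2 (Peg3), 2 without decitabine replicate 1 (Igf2 and Peg3) and 3 without decitabine replicate 2 (Dlk1, Mest and Peg3), and 0 when all 41345 rows were fitted with the trend. Log2 differences ran from −0.75 for Igf2 to 0.43 for Phlda2. The 95% interval excluded a 2-fold rise for 31 of the 32, all but Nap1l5, against 21685 of the 22180 genes. It excluded a 2-fold fall for 31, all but Igf2, against 21781 of the 22180. These shares of the members were near those of all genes. The intervals are those of limma without the trend, whose spread for dim genes may be set too low.

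**Figure D2:**
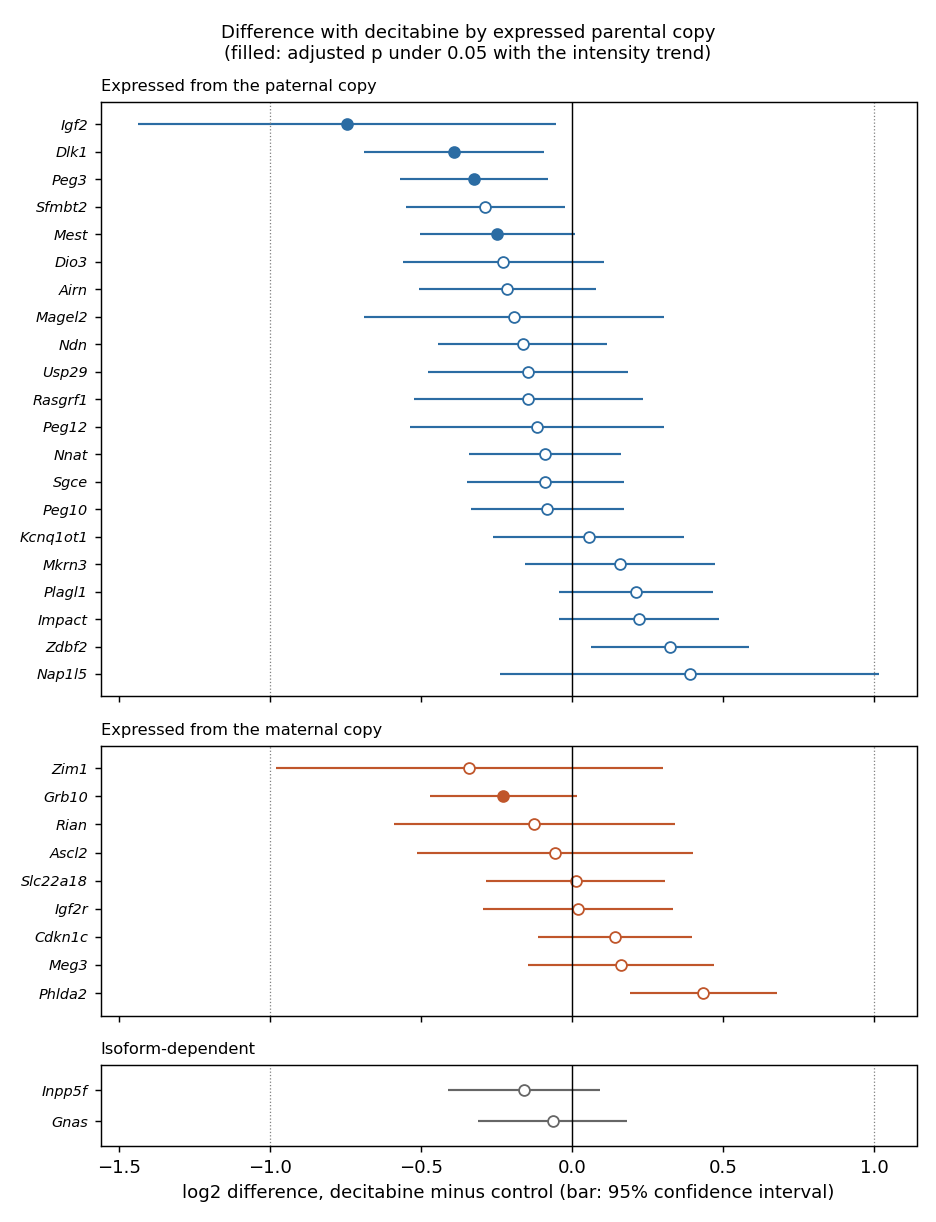
Log2 difference, decitabine minus control, of the 32 imprinted genes, in 3 panels by the parental copy expressed, with 95% confidence intervals from limma without a trend. Filled points passed with the intensity trend, dotted lines mark a 2-fold change, and all 5 filled points (Igf2, Dlk1, Peg3, Mest and Grb10) lie left of 0.

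Igf2, which encodes a secreted growth factor of fetal tissues and many tumours, had the lowest log2 difference of the members. Its level was 9.68 and 9.22 in control and 9.03 and 8.37 with decitabine. The groups did not overlap, yet the 2 control arrays differed from each other by 0.46. The log2 difference was −0.75 ± 0.27 (SE, 2 arrays per group), a 1.68-fold lower level, with adjusted p = 0.326 in limma and 0.0372 with the trend. Same-numbered arrays, which were not taken as pairs, differed by −0.64 and −0.85. Leaving out decitabine replicate 2 brought the log2 difference to −0.41, while it was −0.52 without control replicate 1, −0.97 without control replicate 2 and −1.08 without decitabine replicate 1.

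Of the maternally expressed genes that act against IGF2, Grb10 passed with the trend and Igf2r did not. Igf2r, whose product takes IGF2 from the cell surface to lysosomes, was at 8.31 and 8.30 in control and 8.45 and 8.20 with decitabine, so the control arrays lay between the decitabine arrays. Its log2 difference was 0.02 ± 0.12, and −0.0056 with arrays centred on their medians. Airn, the paternal non-coding RNA that overlaps Igf2r and silences it on that copy, was at 5.45 and 5.26 in control and 5.18 and 5.10 with decitabine (−0.22 ± 0.11). Grb10, an adaptor that binds the insulin and IGF receptors and damps their signal, is maternally expressed outside the brain. Its level was 10.67 and 10.69 in control and 10.47 and 10.44 with decitabine. The difference was −0.23 ± 0.10, and its adjusted p in limma was 0.374, and 0.0233 with the trend. The control arrays differed by 0.03, a gap that rests on 2 arrays only. The trend call of Grb10 was lost in each of the 4 fits that omit 1 array (adjusted p from 0.0547 to 0.173). The log2 ratio of Igf2 to Igf2r within an array was 1.36 and 0.92 in control and 0.59 and 0.17 with decitabine. The ratio joins different probes, so only its change of −0.77 is read, an unequal change of the 2 rows.

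At the cluster of Dlk1, Meg3 and Dio3, 3 of the 4 measured genes had a negative log2 difference and 1 a positive one. The paternal genes Dlk1 and Dio3 and the maternal gene Rian were negative, and the maternal gene Meg3 was positive. Dlk1, a transmembrane protein with EGF-like repeats that is related to Notch ligands, was at 7.28 and 7.41 in control and 6.87 and 7.04 with decitabine. The log2 difference was −0.39 ± 0.12 (adjusted p = 0.254 in limma, and 0.0443 with the trend), and the trend call was lost with quantile normalization (adjusted p = 0.0574). Dio3, the deiodinase that inactivates thyroid hormone, was at 3.86 and 3.64 in control and 3.43 and 3.61 with decitabine (−0.23 ± 0.13). The non-coding RNA gene Meg3, expressed from the maternal copy, was at 4.88 and 4.66 in control and 4.98 and 4.88 with decitabine. Its log2 difference was 0.16 ± 0.12, and the higher control array and the lower decitabine array lay almost at the same value. It was 0.05 without control replicate 2 and 0.27 without control replicate 1. Rian, a maternal non-coding RNA that hosts small nucleolar RNAs, had overlapping groups (−0.13 ± 0.18). The log2 ratio of Dlk1 to Meg3 within an array was 2.40 and 2.74 in control and 1.88 and 2.16 with decitabine, a change of −0.55. For such a single value, 2 arrays against 2 cannot give an exact two-sided permutation p below 0.333. Ratios of the other gene pairs taken changed less. The change was −0.23 for Airn to Igf2r, −0.18 for Peg3 to Usp29 and −0.087 for Kcnq1ot1 to Cdkn1c. It was 0.014 for Peg3 to Zim1 and 0.0064 for Peg10 to Sgce. In all of these but Airn to Igf2r, the differences of same-numbered arrays had opposite signs.

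Among the paternally expressed genes with their promoter at a germline DMR, Peg3 and Mest passed as lower with the trend. Peg3, a zinc finger protein linked to growth and maternal behaviour, was at 11.44 and 11.44 in control and 11.09 and 11.14 with decitabine. Its control arrays differed by 0.0019, and its log2 difference was −0.33 ± 0.10 (adjusted p = 0.250 in limma, and 0.00218 with the trend). In the test of the 11090 genes above the median level, Peg3 was the 1 of 17 members that passed, as lower, against 5.55% of those genes as lower and 5.73% as higher. Usp29, a ubiquitin protease family gene that starts in the opposite direction 163 bases away, across the stretch printed first above, was at 4.59 and 4.73 in control and 4.64 and 4.39 with decitabine (−0.15 ± 0.13). Its groups overlapped. Zim1, a maternally expressed zinc finger gene of the same cluster, had control arrays at 4.91 and 5.63, wider apart than its log2 difference of −0.34 ± 0.25, and without control replicate 2 the difference was 0.019.

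Mest, which encodes a protein with a hydrolase fold and is abundant in embryonic mesoderm, was at 11.89 and 11.84 in control and 11.57 and 11.66 with decitabine. Both decitabine arrays were lower, by −0.25 ± 0.10 on the log2 scale (adjusted p = 0.363 in limma, and 0.0123 with the trend). Of the 11 measured genes with their promoter at a germline DMR, 7 had a negative log2 difference and 4 a positive one. The 4 were Nap1l5, Impact, Plagl1 and Kcnq1ot1, described below. Peg10, Sgce and Nnat, also of this kind, differed less than Mest. Peg10, a gene derived from a retrotransposon and needed in the placenta, had a log2 difference of −0.08 ± 0.10. Sgce, a sarcoglycan that shares its control region with Peg10, was at −0.09 ± 0.10, and the proteolipid gene Nnat at −0.09 ± 0.10. In all 3 both decitabine arrays were below both control arrays, as in 22.5% of all genes, and the differences were smaller than their standard errors. Nnat had a second row, at 0.06, and so the rows of this gene disagreed in sign.

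Both decitabine arrays were above both control arrays in 6 of the 32 members, against 23.4% of all genes. Zdbf2, a zinc finger gene expressed from the paternal copy, was at 5.23 and 5.18 in control and 5.48 and 5.58 with decitabine (0.32 ± 0.10, adjusted p = 0.272 in limma, and 0.244 with the trend). Impact, an inhibitor of the translation kinase GCN2, was at 9.02 and 8.94 in control and 9.15 and 9.25 with decitabine (0.22 ± 0.10). Plagl1, a zinc finger transcription factor that restrains growth, was at 6.32 and 6.22 in control and 6.49 and 6.46 with decitabine (0.21 ± 0.10). The second Plagl1 row was at −0.29, and the mean of both rows at −0.042, so the sign rests on the row used. These 3 genes are among those 6, with Meg3, Cdkn1c and Phlda2. Nap1l5, a nucleosome assembly protein family gene, was at 4.51 and 4.71 in control and at 4.65 and 5.34 with decitabine. Its difference was 0.39 ± 0.25, and 0.043 without decitabine replicate 2, and without decitabine replicate 1 it was the only member to pass as higher with the trend.

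In the Kcnq1ot1 cluster 4 of 5 genes had a positive log2 difference, with a median of 0.05, and none passed in either fit. Phlda2, which limits growth of the placenta, was at 2.68 and 2.71 in control and 3.14 and 3.11 with decitabine. The log2 difference was 0.43 ± 0.10, 1.35-fold, against gaps of 0.03 within either group. The row is dim, near the low end of the arrays, so the size of the difference is uncertain, and in limma the adjusted p was 0.183, and 0.241 with the trend. Cdkn1c, the cyclin-dependent kinase inhibitor p57, was at 5.16 and 5.07 in control and 5.22 and 5.29 with decitabine (0.14 ± 0.10). Slc22a18, a transporter family gene, had a log2 difference of 0.01 ± 0.12, which was −0.011 with quantile normalization and −0.014 with arrays centred on their medians. Ascl2, a helix-loop-helix factor of trophoblast, was at −0.06 ± 0.18. Kcnq1ot1, the paternal non-coding RNA whose transcription silences these neighbours, was at 5.14 and 5.39 in control and 5.35 and 5.29 with decitabine. Its decitabine arrays lay between its control arrays, and the log2 difference was 0.05 ± 0.12.

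The genes of the Snrpn and Ndn cluster, the counterpart of the human Prader-Willi region, had differences no larger than about the spread of their arrays. Ndn, a MAGE family protein of postmitotic neurons, was at 5.17 and 5.003 in control and 4.96 and 4.89 with decitabine (−0.16 ± 0.11, adjusted p = 0.565 in limma), and its control arrays differed by 0.16. Magel2, another MAGE family gene, was at −0.19 ± 0.19 and became 0.072 without decitabine replicate 1. Mkrn3, a RING finger protein that restrains puberty, was at 0.16 ± 0.12, and Peg12, a gene of the FRAT family, at −0.12 ± 0.16. Groups overlapped for the last 3.

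Sfmbt2, a Polycomb-related protein expressed from the paternal copy in extraembryonic tissue, was at 5.68 and 5.56 in control and 5.30 and 5.37 with decitabine. Both decitabine arrays were lower (−0.29 ± 0.10, adjusted p = 0.324 in limma, and 0.301 with the trend). Rasgrf1, an activator of Ras, had overlapping groups (−0.15 ± 0.15). Gnas, the stimulatory G protein alpha subunit, has several promoters of different imprinting, and its row does not tell which transcript it read. It was at 5.19 and 5.22 in control and 5.11 and 5.17 with decitabine (−0.06 ± 0.10). Inpp5f, a phosphoinositide phosphatase with 1 imprinted transcript, was at 6.72 and 6.76 in control and 6.54 and 6.62 with decitabine (−0.16 ± 0.10).

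**Figure D3:**
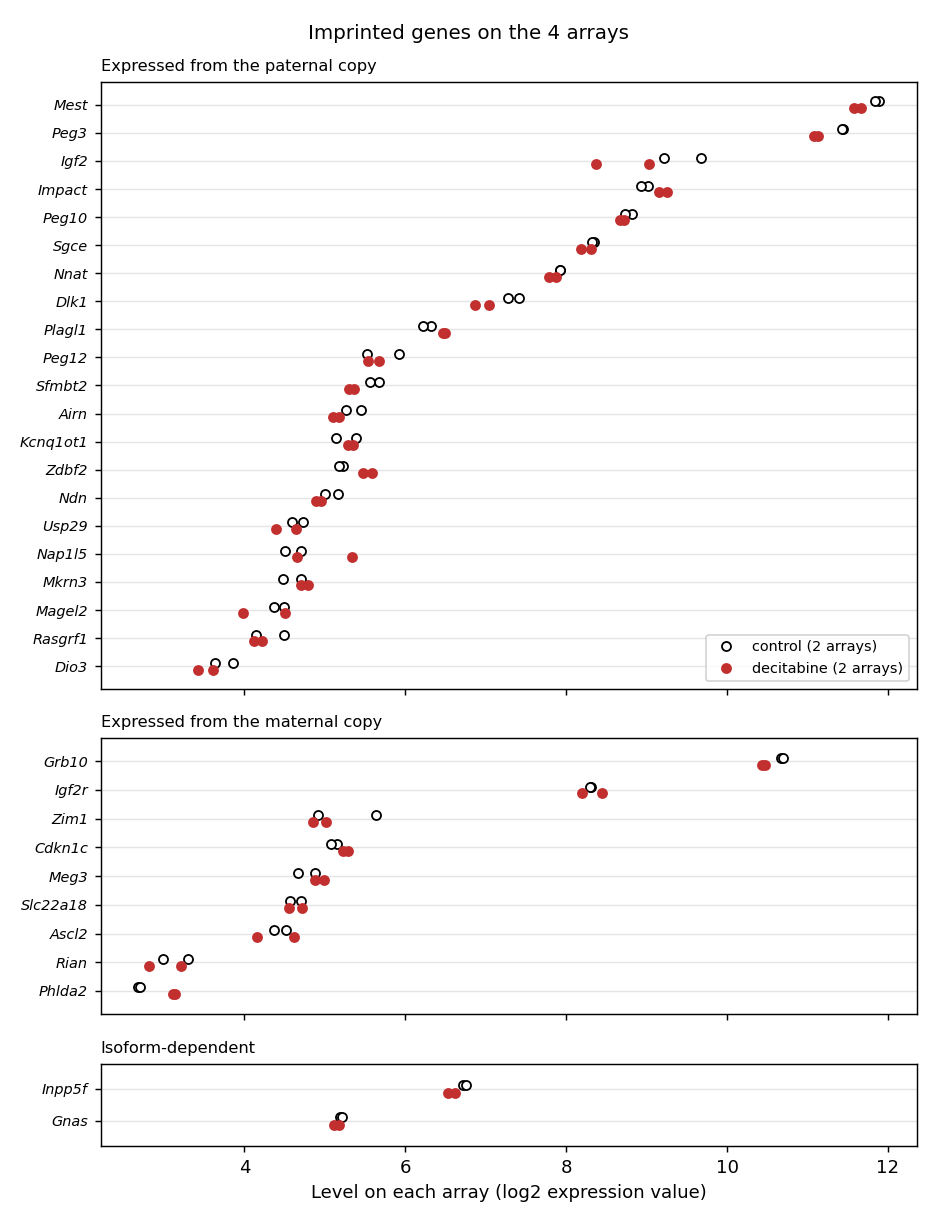
Deposited log2 values of the 32 imprinted genes on each of the 2 control arrays (open) and 2 decitabine arrays (red), in 3 panels by parental copy. The rows of different genes come from different probes and only distances within a gene can be read; Igf2, Dlk1, Peg3, Mest and Grb10 show both red points left of both open points, and Phlda2 and Zdbf2 both to the right.

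By the copy expressed, medians are given as a description, with no test of paternal against maternal genes. The 21 paternally expressed genes had a median log2 difference of −0.15, with 15 negative and 6 positive, and the 9 maternally expressed ones a median of 0.01, with 4 negative and 5 positive. The median over all genes was 0.00395. Both decitabine arrays were below both control arrays in 11 of the 21 paternal genes and above in 3, and in 1 of the 9 maternal genes (Grb10) and above in 3 (Meg3, Cdkn1c and Phlda2). Over all genes these shares were 22.5% and 23.4%. The 11 measured genes with their own promoter at a germline DMR had a median of −0.09, and the other 21 one of −0.13. Members of clusters methylated on the paternal copy (7 genes, among them Igf2, Dlk1 and Zdbf2) had a median of −0.15, and those methylated on the maternal copy (25 genes) one of −0.09.

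The median over all 32 was −0.10, and −0.020 without control replicate 2. The maternal median was −0.06 without control replicate 1, −0.07 without decitabine replicate 2, 0.03 without control replicate 2 and 0.09 without decitabine replicate 1, so its sign is not settled. The paternal median stayed between −0.13 and −0.10 in these fits. Of the 9 maternal genes, 7 were below the median signal of all genes, and of the 21 paternal genes, 7, so the classes differed in level. Among genes above the median level the paternal median was −0.10 and the maternal one −0.10. That maternal median rests on Igf2r (0.02) and Grb10 (−0.23) alone, which disagree, so it cannot be compared with the paternal one.

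Genes that hold or read imprints were listed beside the members, and none of 33 measured passed in limma without the trend. With unadjusted p under 0.05, 3 were higher and 2 lower, against 7.34% and 6.97% of all genes. With the trend 2 were higher and 1 lower, against 3.68% and 3.6% of all genes. Dnmt3b, the de novo methyltransferase, was at 6.37 and 6.39 in control and 5.75 and 5.80 with decitabine. Its difference of −0.60 ± 0.10 had adjusted p = 0.126 in limma, and passed as lower with the trend, at 0.0108. The 2 that passed as higher with the trend were Hells, a chromatin remodeller, at 0.31 ± 0.11 (adjusted p = 0.329 in limma, and 0.0394 with the trend), and Uhrf1, which brings DNMT1 to replicated DNA, at 0.28 ± 0.11 (0.337 and 0.0419). Zfp57, whose product keeps methylation at imprinted DMRs, was at 7.67 and 7.74 in control and 7.42 and 7.43 with decitabine (−0.28 ± 0.10, adjusted p = 0.314 in limma, and 0.0803 with the trend). Eed, a subunit of the Polycomb complex that methylates histone H3, was at 7.92 and 7.80 in control and 8.17 and 8.12 with decitabine (0.29 ± 0.10). The partners of ZFP57 in this task differed little, with Trim28 at −0.07 ± 0.10 and Setdb1 at 0.02 ± 0.10, and these 2 were picked with their values in view. The median of the list was −0.06.

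Of 44 further imprinted genes, none passed without the trend, and the median was 0.02. Without adjustment, 2 were higher and 5 lower with p under 0.05, against 7.34% and 6.97% of all genes. With the trend 4 were lower and 0 higher, against 3.6% and 3.68% of all genes. Ppp1r9a, a scaffold of actin and protein phosphatase at synapses, was at 7.47 and 7.31 in control and 6.82 and 6.60 with decitabine (−0.68 ± 0.13, adjusted p = 0.150 in limma, and 0.00389 with the trend). It lies in the same imprinted domain as Peg10 and Sgce, whose differences were −0.08 and −0.09. In that domain Casd1, a sialic acid acetyltransferase gene, was at −0.35 ± 0.11 and passed as lower with the trend (adjusted p = 0.277 in limma, and 0.0244 with the trend), while the protease inhibitor gene Tfpi2 was at 0.40 ± 0.15 (adjusted p = 0.327 in limma, and 0.286 with the trend). Pon2 (−0.07), Pon3 (−0.01), Asb4 (0.07) and Calcr (−0.03) of the same domain had overlapping groups. Copg2, a coatomer subunit gene next to Mest, was at 8.89 and 8.86 in control and 8.51 and 8.41 with decitabine (−0.42 ± 0.10). Dhcr7, which makes cholesterol, was at −0.41 ± 0.10.

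Among 23 genes of the IGF2 axis, none passed without the trend. With it 1 was higher and 5 lower, against 3.68% and 3.6% of all genes. Of the 23, 13 were above the 75th percentile of level, where 512 of 5545 genes were higher and 534 lower with the trend. The median of the axis was −0.05. Igfbp5, a secreted protein that binds IGFs, was at 7.73 and 7.52 in control and 6.29 and 5.74 with decitabine. Its log2 difference of −1.61 ± 0.21 had adjusted p = 0.0937 in limma, and 2.13e-04 with the trend. Igfbp4, at −0.47 ± 0.10, and Igfbp3, at −0.35 ± 0.10, were the next IGF binding proteins by p, and both passed as lower with the trend (Igfbp4 with adjusted p = 0.186 in limma, and 6.99e-04 with the trend, and Igfbp3 with 0.239 and 0.00180). The other 3 binding proteins listed passed in neither fit, with Igfbp2 at 0.30 ± 0.12, Igfbp7 at 0.14 ± 0.12 and Igfbp6 at −0.34 ± 0.15. The remaining lower ones with the trend were Igf2 and Grb10, and the higher one, named after its value was seen, was Hmga2 (0.34 ± 0.10). The receptor genes Insr (−0.38 ± 0.12) and Igf1r (−0.05 ± 0.12), likewise named afterwards, did not pass in either fit.

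Of 15 genes of the Notch pathway around Dlk1, none passed without the trend. With it 3 were higher and 1, Dlk1, was lower, against 3.68% and 3.6% of all genes. Jag1, a ligand of Notch receptors, was at 7.12 and 6.93 in control and 8.14 and 8.13 with decitabine. The log2 difference was 1.11 ± 0.11, a 2.16-fold higher level, with adjusted p = 0.0609 in limma, and 6.77e-05 with the trend. Hes1, a repressor switched on by Notch, was at 6.42 and 6.24 in control and 6.88 and 6.86 with decitabine (0.54 ± 0.11). The median of this list was 0.12.

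**Figure D4:**
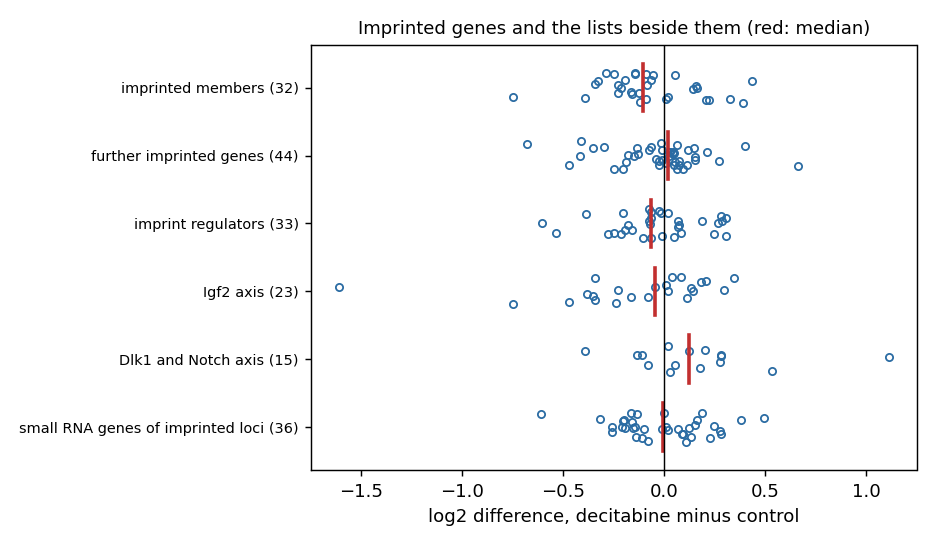
Log2 difference, decitabine minus control, of the 32 imprinted genes and of 5 lists beside them, 1 point per gene, with the red bar at each median and the number of genes in brackets. Dlk1, Igf2, Igf2r, Grb10 and Plagl1 appear also in the pathway lists; the far left point is Igfbp5 at −1.61 and the far right one Jag1 at 1.11.

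Small RNA genes of imprinted loci were also on the array, as precursor rows of a whole-transcript array, which do not measure the mature form. Of 36 measured, none passed in either fit, and the median was −0.01. Without adjustment 1 was higher and 1 lower with p under 0.05, against 7.34% and 6.97% of all genes. Of the 36, 35 were below the median signal of all genes. The 3 with the smallest p, Mir495, Mir154 and Mir758, lie in the maternally expressed cluster with Rian and Mirg. Their mature forms are printed from RefSeq (GRCm38.p6, plus strand) with the seed, bases 2 to 8, in capitals, to show that genes from 1 cluster carry 6 different seeds.
miR-495-5p (chr12:109718757-109718779): gAAGUUGCccauguuauuuuucg
miR-495-3p (chr12:109718795-109718816): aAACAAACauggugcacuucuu
miR-154-5p (chr12:109738438-109738459): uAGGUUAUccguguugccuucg
miR-154-3p (chr12:109738474-109738495): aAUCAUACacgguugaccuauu
miR-758-5p (chr12:109712823-109712843): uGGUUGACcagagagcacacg
miR-758-3p (chr12:109712858-109712876): uUUGUGACcugguccacua

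The Mir495 row was at 1.49 and 1.22 in control and 1.99 and 1.70 with decitabine (0.49 ± 0.15), at the dimmest end of the arrays. The Mir154 row was at 2.03 and 2.12 in control and 1.82 and 1.69 with decitabine (−0.32 ± 0.11), and so the 2 dim rows of 1 cluster lay on opposite sides of 0. The Mir758 row was at 0.23 ± 0.11.

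Cell markers were read on the same arrays. Of the 3 markers of müllerian and mesothelial cells, Wt1 and Upk3b were bright and passed as lower with the trend. Such calls were made for 3.6% of all genes and for 534 of 5545 genes above the 75th percentile of level. Pax8 was dim and at 0.14 ± 0.10. The summed level of the 3 markers on the log2 scale was 12.50 to 12.51 in control and 12.28 to 12.29 with decitabine. The 8 epithelial markers summed to 10.44 to 10.48 in control and 10.80 to 10.84 with decitabine. All 8 were higher on both decitabine arrays, against 23.4% of all genes. With the trend 4 of 8 passed as higher, against 3.68% of all genes. These 8 include Msln, which mesothelial cells also express and which was at 0.86 ± 0.10 (adjusted p = 0.0762 in limma, and 4.66e-04 with the trend), so the mesothelial markers did not move one way. The 6 mesenchymal markers summed to 12.87 to 12.90 and 12.97 to 13.04, with 3 positive and 3 negative. With the trend Thy1 (1.48 ± 0.17) and Vim (0.35 ± 0.11) passed as higher and Pdgfra (−0.28 ± 0.10) as lower, against 3.68% and 3.6% of all genes. Such sums are weighted to the brightest rows. The 5 measured leukocyte markers summed to 7.08 to 7.11 and 7.46 to 7.48. Of these 5, Cd68 and Itgam were higher without adjustment, against 7.34% of all genes. Cd68 was also higher with the trend, against 3.68% of all genes. Cd3e (0.03 ± 0.14) and Lyz2 (−0.07 ± 0.28) had overlapping groups. The defining marker Ptprc was dim, at 3.01 to 3.24 on all 4 arrays. The 4 endothelial markers summed to 6.66 to 6.84 and 6.93 to 6.95, and the 3 measured placental and germ cell markers to 5.64 to 5.76 and 5.93 to 6.11. Of these 3 only Ddx4 was positive (0.57 ± 0.15), with Dazl at −0.33 ± 0.16 and Tpbpa at −0.07 ± 0.21. Array values have no zero level, so none could be called absent. The part of these differences in the values of the imprinted genes was not tested.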

How the data were processed

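RNA of 4 samples was measured on whole-transcript Affymetrix arrays (Mouse Gene 2.0 ST), 1 array per sample, per the labels. The authors deposited 1 value per row and array. These deposited values were taken as log2 because they run from 0.55 to 13.26 with no missing cell. Log base, background correction, normalization and summarisation are not given in the sources used here, and another base would change every fold. Of 41345 rows, 23521 had 1 symbol in the platform table, 1814 several and 16010 none here. The highest-mean row per symbol gave 22180 genes, with no filter on dim rows, and 0 columns of other series.

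The test was that of limma 3.58.1, run in R 4.3.3 (lmFit, eBayes, two-sided, group as the only term, Benjamini-Hochberg over all genes, threshold 0.05). The fit without the trend was tested on simulated data, where it did not recover changes as small as those of the members. Members and lists were chosen with earlier results of these data known. Parental copies, clusters and DMR classes are textbook assignments. The rule for full values took members past an unadjusted p of 0.05, or past the threshold with the trend, and fixed members of which H19 and Snrpn had no usable row, and 3 genes per further list by smallest p. Values of remaining members are given as well, and any other list gene or marker named was picked with its value in view. The count of TGCCGC in any window was added after seeing the data. Sequences and chromosomes are RefSeq, GRCm38.p6. Figures used matplotlib 3.10.9 in Python 3.11.15.

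Replicate numbers were shared by the groups, but deviations from the group means correlated at −0.0176 between same-numbered arrays, so the numbers were not taken to pair the samples.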

Additional observations from a re-analysis of the deposited data

How the results depend on the processing

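Of the 32 imprinted genes, 0 passed as higher and 0 as lower in the fit without a trend. With an unadjusted p under 0.05 these counts were 2 and 4. As lower, 1 passed among genes above the median level and 5 with the intensity trend. Counts stayed at 0 with quantile normalization, centred arrays, the 25th percentile filter, robust eBayes, averaged rows per gene, every row tested, an adjusted p under 0.10 and the replicate number as a block. With the trend, in fits chosen after seeing the data, the 5 lower calls were 4 with quantile normalization, 5 with centred arrays, 5 with the replicate block and 0 with all rows. They were 0 to 3 when 1 array was left out, with 0 to 1 higher calls. Over all genes, 32 calls became 51 with centred arrays, 215 and 1251 above the 25th percentile and the median level, 1615 with the trend, 18 with robust eBayes, 0 with the replicate block, 0 with all rows, 154 at an adjusted p under 0.10 and 3174 at an unadjusted p under 0.05, and 0 to 0 when 1 array was left out. The median of the 32 ran from −0.11 to −0.020 when 1 array was left out, the paternal one from −0.13 to −0.10 and the maternal one from −0.070 to 0.092. Among genes above the median level, where fewer genes were tested, the maternal median was −0.10, from Igf2r and Grb10 alone, and the paternal one −0.10. With Inpp5f counted as paternal, Gnas as maternal and Grb10 left out, the class medians were again −0.15 and 0.01. The maternal median could not move, because Grb10 and Gnas both lie below it, and 1 added gene could shift the paternal one only slightly. This setting is thus no check of the medians.

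The sign changed for 9 members when 1 array was left out and for 3 under another setting, and for 22 it changed under none run. With arrays centred, Igf2r was at −0.0056 and Slc22a18 at −0.014, and with quantile normalization Slc22a18 was at −0.011. The mean of its rows put Plagl1 at −0.042. Leaving out 1 array gave −0.10 to 0.14 for Igf2r, −0.70 to 0.019 for Zim1, −0.46 to 0.072 for Magel2, −0.32 to 0.085 for Peg12, −0.32 to 0.068 for Rian, −0.070 to 0.18 for Kcnq1ot1, −0.070 to 0.092 for Slc22a18, −0.29 to 0.17 for Ascl2 and −0.32 to 0.030 for Rasgrf1. The cause was not tested.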
